A study of Mus musculus with 6 samples.

Results

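A set of 10 enteroendocrine granule and excitability genes was followed through single-nucleus RNA sequencing of mouse jejunal organoids. They were 2 granins (Chga, Chgb), 5 genes for ion channels and an ion exchanger (Kcnj3, Kcnb2, Scn3a, Slc8a1, Trpc7) and 3 genes for exocytosis or kinase anchoring (Rimbp2, Rab3c, Sphkap), out of 31319 genes in the count matrices. The genes were chosen from their measured levels in the deposited clusters 9 and 10, so their rise in those clusters is given as a description with no test. Organoids of C57BL/6 mice aged 8 to 12 weeks were cultured in conditioned medium of quiescent mouse embryonic fibroblasts (QCM, 3 samples) or of senescent fibroblasts (SCM, 3 samples), and the matrices held 38154 nuclei in 15 clusters. Quiescence was brought about by serum deprivation and senescence by X-rays or doxorubicin, and the labels do not say which senescent medium each SCM sample received. The labels number the replicates but do not tie them to separate mice, so the p-values measure only the spread between these samples. No gene was perturbed in any sample, and the medium bathed all cell types of an organoid at once.

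Enteroendocrine cells are scattered secretory cells of the gut epithelium that sense luminal contents and release hormones. Granins are acidic proteins that condense peptide hormones and amines into dense-core granules. The cells fire action potentials, calcium enters, and a release machinery shared with neurons fuses the granules with the membrane. Enterochromaffin cells are the subtype that makes serotonin with the enzyme Tph1.

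Cluster 9 held 782 nuclei and cluster 10 held 483, of the 38154 in all. Of 20 enteroendocrine markers that are not among the 10 genes, all 20 were at least 2-fold higher in pooled CPM (UMIs of a gene per 1000000 UMIs of the same nuclei) in cluster 9 than in the clusters outside 9 and 10, and 12 were so in cluster 10. Over the 15301 genes with at least 200 UMIs in all, 4.38% passed that fold in cluster 9 and 3.08% in cluster 10. The markers summed to 2914 CPM in cluster 9, 917 in cluster 10 and 199.8 elsewhere. Cluster 9 was led by the hormones Gip, Gcg and Cck (806, 620.2 and 526 CPM). Cluster 10 had 125 CPM of Tph1 against 10.0 in cluster 9, 153 of Tac1 against 18.2, and 223 of the transcription factor Lmx1a against 17.6. Of the 20 markers, only 3 were at least 2-fold higher in cluster 10 than in cluster 9, while 14 were at least 2-fold higher in cluster 9. Both clusters are therefore called enteroendocrine-like. The neuron marker list summed to 38.0 CPM in cluster 9 and 17.7 in cluster 10, against 6.68 elsewhere. Of the 8 neuron markers found, 6 were at least 2-fold higher in cluster 9 than elsewhere and 4 in cluster 10, the most abundant being Ret (23.9 and 10.9 CPM), while Prph was at 0 in both clusters and Tubb3 and Chat in cluster 10. Of 4 glial markers, Sox10 and Foxd3 were at 0 in both clusters and 0 passed the fold in either. Of 8 fibroblast, muscle and immune markers, Col1a1, Col1a2, Col3a1, Dcn and Des were at 0 in both clusters, and 1 passed the fold in cluster 9 (Ptprc, with 2 UMIs) and 0 in cluster 10.

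The libraries differed in ways that bear on every result. QCM replicate 1 was the deepest, with a median of 8260 UMIs per nucleus against 1578 to 3156.5 in the others. SCM replicate 1 held 430 nuclei, against 3791 to 10833 in the rest, and only 3 of them lay in cluster 9 and 4 in cluster 10. Of its barcodes, 175 (40.7%) were also in QCM replicate 1, where any other pair of libraries shared 0 to 36. Whether SCM replicate 1 holds reads of QCM replicate 1 was not tested, and over all nuclei the median of the 10 genes and the granin values are also given without it. The 3 nuclei of SCM replicate 1 in cluster 9 carried 108 UMIs of Kcnb2, 28 of Rimbp2 and 26 of Slc8a1, and 0 of Chga, Scn3a and Trpc7. Its 4 nuclei of cluster 10 carried 1 member UMI in all and had 17 of the 20 enteroendocrine markers at 0. Single-library values, means over libraries and fits within the clusters are hence given over the other 5 libraries, each with at least 10 nuclei in both. Pooled levels, pooled folds, granin ratios and shares of nuclei with a UMI hold all 6 libraries. Pooled folds without QCM replicate 1 also keep SCM replicate 1.

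The share of UMIs outside the enteroendocrine-like clusters differed between the genes. For the granins, 71.4% of Chga UMIs and 80.5% of Chgb UMIs came from nuclei outside clusters 9 and 10. For the other 8 genes the pooled share outside ran from 25.2% (Rimbp2) to 50.6% (Trpc7), and the order differed between libraries. Cluster 6 held 13.3% of the Kcnb2 UMIs and from 1.09% (Kcnj3) to 4.12% (Trpc7) of those of the other 9 genes.

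**Figure D1:**
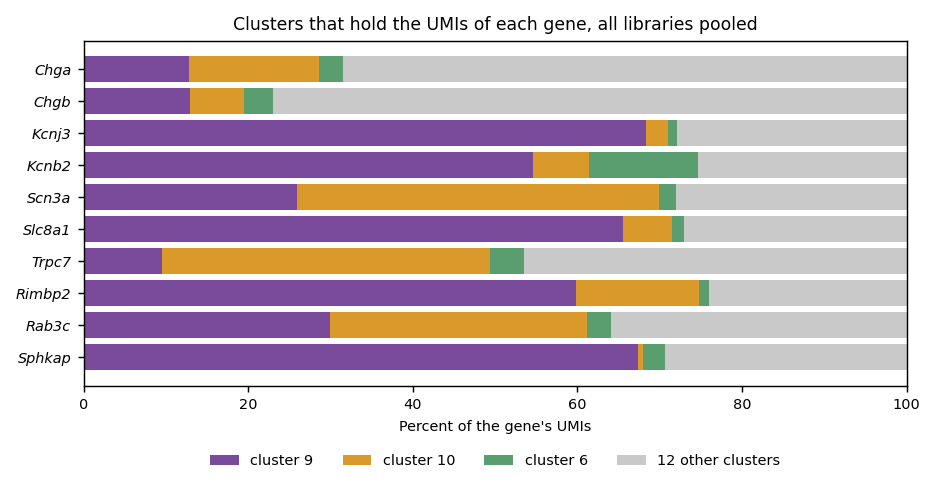
Stacked bars give the percent of each gene's UMIs, all 6 libraries pooled, that lay in cluster 9, cluster 10, cluster 6 and the 12 remaining clusters. The grey part is the widest in the Chga and Chgb bars, while the cluster 9 part takes most of the bars of Kcnj3, Slc8a1, Sphkap, Rimbp2 and Kcnb2.

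The pooled level outside was lower than in clusters 9 and 10. In clusters other than 9 and 10 the pooled level was 11.2 CPM for Chga and 74.0 for Chgb. A UMI of Chga was found in 4.45% of nuclei of cluster 8 (Wilson 95% interval 3.49 to 5.65%), which is rich in enterocyte markers (5550 CPM summed, against 1873 in cluster 9), and Chgb in 19.8% (17.8 to 21.9%). Enterocytes are not known to make granules of this kind, and the source of these UMIs was not tested. The deep QCM replicate 1 set them in large part, with Chga in 20.9% of its cluster 8 nuclei against 0 to 3.56% in the other libraries, and Chgb in 63.6% against 9.09 to 15.8%. With every nucleus thinned to 1000 UMIs, Chga was found in 4.97% of nuclei of cluster 9, 13.3% of cluster 10 and 0.887% of cluster 8, and Chgb in 19.0%, 19.6% and 6.30%. Cluster 8 is not the highest of the clusters outside, and in cluster 1 the thinned shares were 1.96% for Chga and 11.1% for Chgb. Without thinning, Chgb was found in 28.0% of cluster 1 nuclei, against 34.3% in cluster 9 and 30.0% in cluster 10. Intervals and floors, here and for the genes below, cover counting error only. The intervals pool nuclei over libraries and leave out the spread between libraries.

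The ratio of the granins was compared between clusters. Chgb had 4.97 to 8.54 UMIs per Chga UMI in the 13 clusters outside 9 and 10 (median 6.52), 5.94 in cluster 9 and 2.43 in cluster 10. The ratio in cluster 9 lay within the range of the 13 clusters and that in cluster 10 lay under it. QCM replicate 1 went the other way, with 1.90 in cluster 9 and 4.02 in cluster 10, while the other 4 libraries had 6.16 to 11.2 in cluster 9 and 1.71 to 2.66 in cluster 10. Both granin genes are short, 10.1 and 13.8 kb, whereas the other 8 genes span 110.5 to 436.5 kb; the part of gene length in these shares was not tested.

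Chga (chromogranin A; ENSMUSG00000021194; mm10 chromosome 12, 102554969 to 102565028, plus strand) is the classical marker of endocrine granules. In cluster 9 it stood at 125, 72.1 and 41.3 CPM in QCM replicates 1 to 3 and at 39.6 and 74.2 CPM in SCM replicates 2 and 3. In cluster 10 it stood at 153, 257 and 256 CPM in QCM and 106 and 313 in SCM. Every library had more Chga in cluster 10 than in its own cluster 9, by 0.29 to 2.63 on the log2 scale, and the smallest gap was that of QCM replicate 1. The pooled levels were 221 and 71.6 CPM, 3.09-fold apart, and 4.11-fold apart without QCM replicate 1.

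Chgb (chromogranin B; ENSMUSG00000027350; chromosome 2, 132781278 to 132795079, plus strand) did not divide the pair of clusters in this way. Cluster 9 held 238, 445 and 461 CPM in QCM and 303 and 608 in SCM, and cluster 10 held 615, 503 and 681 in QCM and 282 and 536 in SCM. It was higher in cluster 10 in 3 of 5 libraries and lower in 2, and the ranges overlapped.

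The start sites of the granins are shown because both genes are known to respond to cyclic AMP through a CRE, a site with the core TGACG or, in full, TGACGTCA. The sequences are from the RefSeq promoter table (build GRCm38.p6), which matched 8 of the 10 genes and held none for Kcnb2 and Scn3a. Capitals mark matches, on either strand, to the CRE core, the full CRE, the E-box CAGNTG that basic helix-loop-helix factors bind, or TATAAA. The Chga window is the 250 bases before the RefSeq start (chr12:102554691-102554940, plus strand). It holds a CRE core 44 bases before the start and 3 E-boxes. For Chgb only the full CRE with 10 bases on each side is shown (chr2:132781560-132781587, plus strand), 72 bases before the RefSeq start, in the first exon of the GENCODE M21 gene model.
Chga: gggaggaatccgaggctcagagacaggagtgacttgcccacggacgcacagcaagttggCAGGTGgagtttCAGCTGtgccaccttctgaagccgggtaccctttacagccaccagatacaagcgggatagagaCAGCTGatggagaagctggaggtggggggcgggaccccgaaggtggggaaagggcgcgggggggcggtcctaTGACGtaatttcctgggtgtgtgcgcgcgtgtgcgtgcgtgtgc
Chgb: ggctgctccgTGACGTCAgggctgagcg
Of 32851 promoters searched over the same length, 17.8% held the CRE core, 1.55% the full CRE (which contains the core on both strands), 44.8% an E-box and 12.4% a TATAAA. A match is a description of letters and no measure of binding.

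Of the channel genes, Kcnj3 (ENSMUSG00000026824; chromosome 2, 55435970 to 55598145, plus strand) encodes a subunit of the inward rectifier that G proteins open to quiet a cell. In cluster 9 it stood at 33.9, 275 and 200.1 CPM in QCM and at 326 and 223 in SCM, and in cluster 10 at 26.1, 12.1 and 29.5 in QCM and 12.3 and 13.9 in SCM. Every value of cluster 9 was above every value of cluster 10, but QCM replicate 1 had nearly the same level in both clusters (-0.38 on the log2 scale, cluster 10 against 9) where the median library had -4.00. The pooled fold was 10.4 in favour of cluster 9, and 13.6 without QCM replicate 1. In that library the enteroendocrine markers of cluster 9 summed to 1202 CPM, against 2226 to 4299 in the other 4, and its cluster 9 nuclei had a median of 11409 UMIs; the part of depth or of cluster make-up in its low Kcnj3 was not tested. The 250 bases before the Kcnj3 start (chr2:55435720-55435969, plus strand) hold 1 E-box and no CRE core.
Kcnj3: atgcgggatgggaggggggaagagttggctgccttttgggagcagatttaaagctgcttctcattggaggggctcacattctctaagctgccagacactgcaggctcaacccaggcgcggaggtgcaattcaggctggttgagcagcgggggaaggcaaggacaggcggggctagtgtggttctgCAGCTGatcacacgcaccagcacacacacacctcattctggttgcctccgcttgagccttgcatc

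Kcnb2 (ENSMUSG00000092083; chromosome 1, 15287254 to 15723750, plus strand) encodes a delayed rectifier that repolarises the membrane after a spike. Cluster 9 held 954, 2104 and 773 CPM in QCM and 2063 and 1637 in SCM, against 548, 591 and 391 in QCM and 356 and 389.5 in SCM in cluster 10. It was lower in cluster 10 in 5 of 5 libraries, by 0.80 to 2.54 on the log2 scale. In cluster 9, 49.6% of nuclei had a UMI (interval 46.1 to 53.1%), the widest detection of the 10 genes there. Cluster 6, which is rich in goblet markers (3366 CPM summed against 972 in cluster 9) and Paneth markers (1751 against 664), was next after cluster 10 with 158 CPM, and 12.5% of its thinned nuclei had a UMI against 2.22% in cluster 8. The predicted genes Gm38116 and Gm37138, on the same strand, overlap Kcnb2 and held 180 UMIs beside its 9650, so the split of reads between them is uncertain.

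Slc8a1 (ENSMUSG00000054640; chromosome 17, 81373105 to 81738377, minus strand), the sodium-calcium exchanger that clears calcium after a spike, followed the same order. Its levels in cluster 9 were 138, 367 and 205 CPM in QCM and 319 and 288 in SCM. In cluster 10 they were 74.5, 84.4 and 59.0 CPM in QCM and 32.7 and 48.7 in SCM. Every value of cluster 9 was above every value of cluster 10, and the pooled fold was 4.38 in favour of cluster 9.

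Scn3a (ENSMUSG00000057182; chromosome 2, 65457118 to 65567627, minus strand), a pore subunit of voltage-gated sodium channels, had the opposite order. It stood at 50.9, 63.3 and 33.9 CPM in QCM and 72.3 and 97.8 in SCM in cluster 9, and at 447, 298 and 214 in QCM and 139 and 250.4 in SCM in cluster 10. Every value of cluster 10 was above every value of cluster 9. With nuclei thinned to 1000 UMIs, 16.1% of cluster 10 and 4.13% of cluster 9 had a UMI, against 0.342% of cluster 8.

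Trpc7 (ENSMUSG00000021541; chromosome 13, 56773113 to 56895993, minus strand), a calcium-permeable cation channel opened downstream of phospholipase C, was the higher in cluster 10 in 5 of 5 libraries. In cluster 9 the 5 libraries held 12, 3, 2, 0 and 6 UMIs in the order QCM replicates 1, 2 and 3 and SCM replicates 2 and 3. In cluster 10 the same libraries stood at 44.7, 84.4, 73.8, 28.6 and 93.9 CPM. Pooled over libraries this was 66.0 against 6.24 CPM, a fold of 10.6, and 18.8 without QCM replicate 1, which held 12 of the 23 UMIs of cluster 9, all 12 in 1 nucleus.

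**Figure D2:**
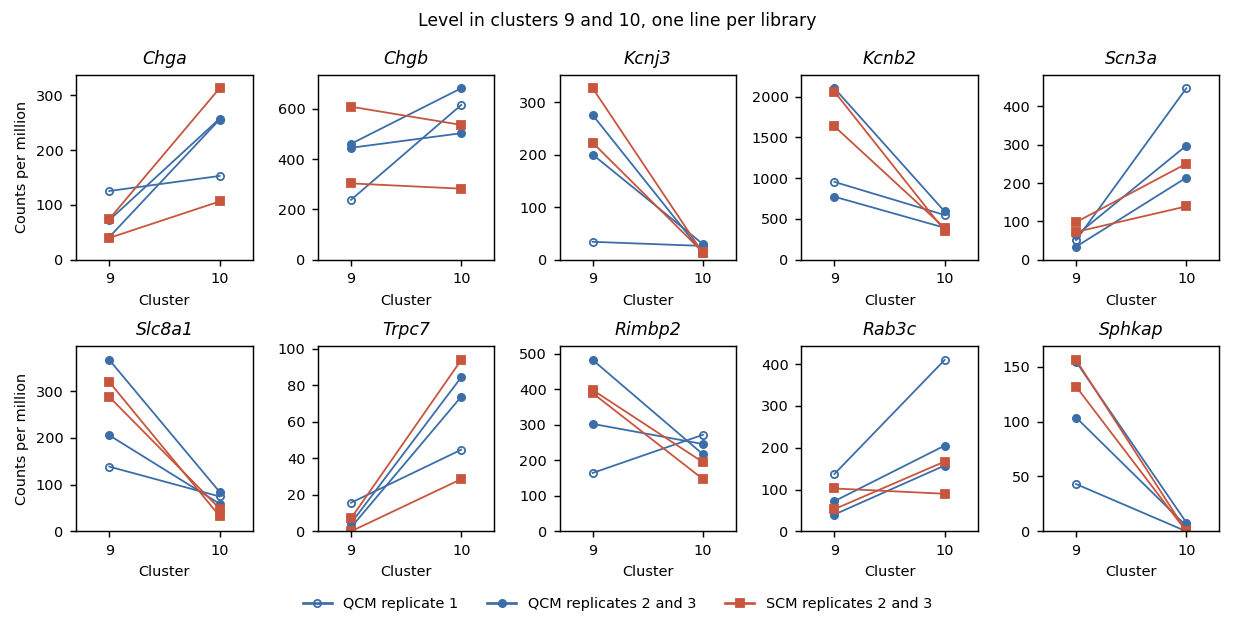
Each panel plots one gene's level in CPM (linear axis from 0) in cluster 9 and cluster 10, with one line per library and 5 libraries in all (SCM replicate 1 is left out). Lines for Kcnj3, Kcnb2, Slc8a1 and Sphkap all fall from left to right, those for Chga, Scn3a and Trpc7 all rise, and those for Chgb, Rimbp2 and Rab3c go both ways.

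Rimbp2 (ENSMUSG00000029420; chromosome 5, 128757791 to 128953486, minus strand) encodes a scaffold that ties calcium channels to the release machinery. Cluster 9 stood at 164.5, 483 and 303 CPM in QCM and 389 and 398 in SCM, and cluster 10 at 272, 217 and 246 in QCM and 147 and 195 in SCM. Cluster 9 was the higher in 4 of 5 libraries, the exception being QCM replicate 1, and the pooled fold was 1.59 (1.91 without that library). It was found in 20.4% of thinned nuclei of cluster 9, 10.5% of cluster 10 and 0.498% of cluster 8, so both clusters stood above the share in cluster 8. Its window holds 4 E-boxes.

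Rab3c (ENSMUSG00000021700; chromosome 13, 110054187 to 110280996, minus strand) encodes a small GTPase of secretory vesicles. It stood at 137, 72.1 and 40.2 CPM in QCM and 103 and 53.0 in SCM in cluster 9, and at 410.0, 205 and 157 in QCM and 89.9 and 167 in SCM in cluster 10. Cluster 10 was the higher in 4 of 5 libraries and SCM replicate 2 was the exception. The pooled fold was 2.62.

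Sphkap (ENSMUSG00000026163; chromosome 1, 83254139 to 83408200, minus strand) encodes a protein that anchors protein kinase A. In cluster 9 it stood at 43.1, 155 and 104 CPM in QCM and 156 and 132 in SCM. The same libraries held 0, 2, 2, 0 and 0 UMIs in cluster 10, where a count of 0 in QCM replicate 1 and both SCM libraries allows up to 11.2, 12.3 and 10.4 CPM. A UMI was found in 17.4% of nuclei of cluster 9 (14.9 to 20.2%) and 0.828% of cluster 10 (0.323 to 2.11%), whose interval overlaps that of cluster 8 (0.494%, 0.240 to 1.02%). Its window (chr1:83408201-83408450, minus strand), shown as the counterpart to that of Kcnj3, holds none of the searched motifs; nor do those of Slc8a1 and Trpc7, and Rab3c holds 1 E-box.
Sphkap: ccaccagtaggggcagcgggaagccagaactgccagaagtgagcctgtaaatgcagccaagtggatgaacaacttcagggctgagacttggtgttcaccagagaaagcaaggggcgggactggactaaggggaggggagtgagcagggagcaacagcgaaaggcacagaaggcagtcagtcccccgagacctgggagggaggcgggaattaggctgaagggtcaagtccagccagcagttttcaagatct

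Across all 15 clusters, taking the mean CPM over libraries with at least 10 nuclei, cluster 9 came first for Kcnj3, Kcnb2, Slc8a1, Rimbp2 and Sphkap and cluster 10 for Chga, Chgb, Scn3a, Trpc7 and Rab3c. The first and second did not overlap over libraries for Kcnj3, Kcnb2, Scn3a, Slc8a1, Trpc7 and Sphkap, and overlapped for Chga, Chgb, Rimbp2 and Rab3c. Sphkap alone had a cluster other than 9 or 10 in second place, cluster 11 with 5.70 CPM ± 6.90 (SD over libraries).

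**Figure D3:**
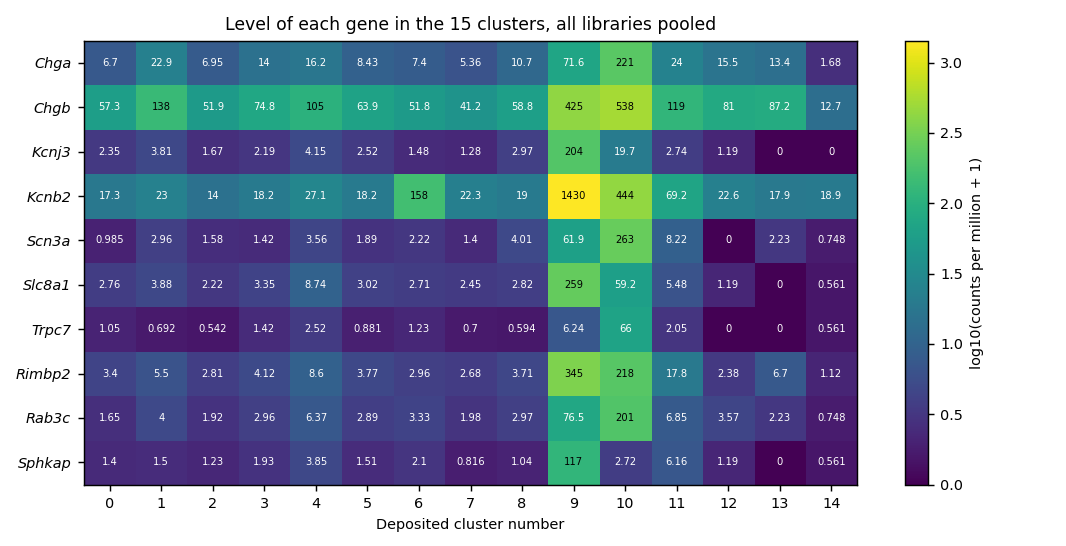
The heat map gives each gene's pooled CPM in clusters 0 to 14, printed in each cell and coloured on a log10(CPM + 1) scale. Columns 9 and 10 hold the 2 highest values of every row except that of Sphkap, which is at 2.72 in cluster 10, and the Kcnb2 row has a further raised cell at cluster 6.

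Of cluster 9 nuclei, 66.0% had a UMI of at least 1 of the 10 genes and 32.5% of at least 3, and of cluster 10 nuclei 58.6% and 18.01%. Outside both clusters the same shares were 29.0% and 0.783%, and in cluster 6 they were 40.5% and 1.14%. Thinned to 1000 UMIs, and leaving the granins out, 53.4% of cluster 9 and 32.0% of cluster 10 had any of the remaining 8 genes, against 4.38% of cluster 8 and 14.2% of cluster 6, where Kcnb2 is raised. Nuclei with one gene also tended to have another, but were deeper. In cluster 10, Chga was found in 83.0% of nuclei with Trpc7 and 15.6% of those without, where the median depth was 3028 and 1878 UMIs; the part of depth was not tested. In cluster 9, Kcnj3 was found in 72.1% of nuclei with Sphkap and 9.91% of those without, at 4814 and 1889.5 UMIs.

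The genes whose levels over the 15 clusters (log2(CPM + 1)) were most like those of each member were found among 15301 genes with at least 200 UMIs. Points share libraries and depth, and the correlation is given as a description. For Kcnb2 the nearest gene was Ptprn2, a granule membrane phosphatase (r = 0.993). Kcnj3 was nearest to Nxph1 (0.975), Sphkap to Tnr (0.973) and the endocrine transcription factors Pax6 (0.965) and Isl1 (0.963), and Slc8a1 to Ppp1r14c (0.971). Trpc7 and Scn3a were both nearest to Lmx1a (0.961 and 0.947), while Rimbp2 and Rab3c were both nearest to Stxbp5l, a syntaxin-binding protein (0.972 and 0.966). Chga and Chgb were nearest to the hormone Sst (0.949 and 0.940), which had only 242 UMIs in all.

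Other genes of the same machinery were read from 3 lists. Of 13 genes for granule cargo and processing, 12 were at least 2-fold higher in cluster 9 than outside both clusters and 9 in cluster 10, where 4.38% and 3.08% of the genes with at least 200 UMIs did, a minimum to which the listed genes were not held. Ptprn2 led in both (2092 and 789 CPM), followed in cluster 9 by the carboxypeptidase Cpe (215 CPM, with 24.5 in cluster 10), the amidating enzyme Pam (180.4) and the vesicular monoamine transporter Slc18a1 (87.6, with 156 in cluster 10). The prohormone convertase Pcsk1 stood at 77.3 and 57.8 CPM.

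Of 26 genes for regulated exocytosis, 15 and 13 passed the same fold in clusters 9 and 10. Cadps, which primes dense-core vesicles, stood at 266 and 129.99 CPM against 7.58 outside. Unc13b had the highest level of the list but was hardly above the rest (308 and 275 against 268), as was Nsf, the ATPase that recycles release complexes (138 and 117 against 108). Rph3al stood at 286 and 116 CPM against 60.5 outside, and Rims2 at 243 and 165 against 82.2.

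Of 33 genes for excitability, 24 and 17 passed. The calcium channel subunits Cacna1a (906 and 295 CPM), Cacna1c (454 and 64.7) and Cacna2d1 (393 and 164) led in cluster 9, and Kcnma1, a calcium-activated potassium channel, stood at 241 and 76.2. In cluster 10 Trpm4 (59.2, against 55.6 outside) was among the leading 5 without being raised there.

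Whether the medium changed these genes was first asked over all nuclei of each library, where fewer enteroendocrine cells and less RNA per cell cannot be told apart. The fitted SCM estimate was below QCM for all 10 genes, where 51.4% of the 19046 genes tested were. The median log2 was -0.62 against -0.01 over all genes tested. The median was -0.26 without SCM replicate 1 and -0.49 with replicates 2 and 3 alone. Kcnj3 and Sphkap turned to estimates above 0 without QCM replicate 3, and Kcnb2 without SCM replicate 1. None of the 10 passed the adjusted threshold in edgeR's quasi-likelihood test. No gene of the whole table passed it either (0%), while DESeq2 called 20 genes, none of them among the 10. At an unadjusted p under 0.05 edgeR called 2 of the 10, Chga and Chgb, where 4.55% of all genes (866) were called. That count was 0 of 10 without QCM replicate 1 (306 of all genes called), QCM replicate 3 (856) or SCM replicate 2 (163). It was 2 without QCM replicate 2 (2341) or SCM replicate 1 (424), and 3 without SCM replicate 3 (1235). With DESeq2 it was 3, where 1225 of all genes were called at that p.

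Chga stood at 22.7, 13.0 and 17.4 CPM in QCM and at 2.46, 6.16 and 12.4 CPM in SCM, so the highest SCM library lay just under the lowest QCM library. The group means were 17.7 ± 4.86 and 6.99 ± 4.9996 CPM (SD, n = 3). The fitted log2 was -1.45 (SE 0.54, adjusted p = 0.927), and -0.74 with replicates 2 and 3 alone. Chgb stood at 121, 72.6 and 121 CPM in QCM and 12.8, 45.6 and 73.3 in SCM, overlapping by a narrow margin, with a fitted log2 of -1.40 (SE 0.57, adjusted p = 0.927) and -0.75 with replicates 2 and 3 alone. Both granins were lowest in the smallest library, SCM replicate 1, without which the log2 of Chga was -1.10.

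Rab3c was the other gene whose libraries did not overlap (8.29, 6.38 and 8.98 CPM in QCM against 1.47, 5.15 and 5.82 in SCM), with a fitted log2 of -1.02 (SE 0.46, adjusted p = 0.927). Chga and Rab3c were thus 2 of the 10 genes with all SCM libraries under all QCM libraries, against 2.09% of genes tested. The remaining 7 genes overlapped, and their fitted log2 ran from -0.17 (Sphkap) to -1.16 (Trpc7). With 1 library left out, that of Trpc7 ran from -2.23 to -0.52 and that of Scn3a from -1.51 to -0.31. Scn3a and Trpc7 had 0 UMIs in SCM replicate 1, which allows up to 0.737 CPM.

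**Figure D4:**
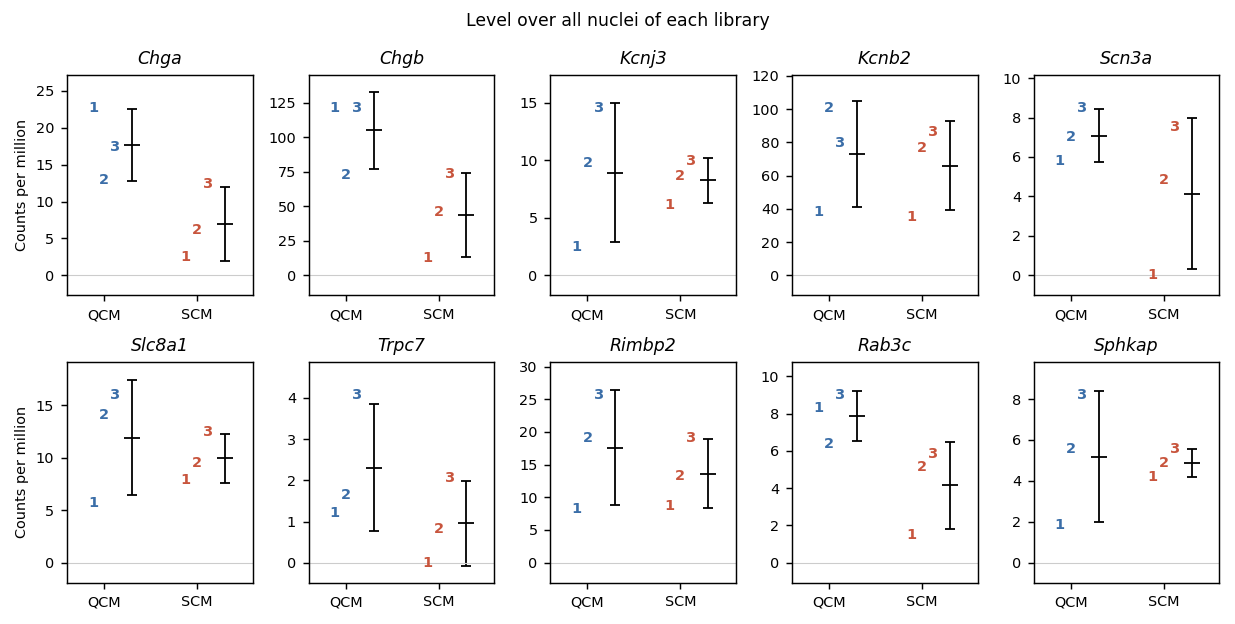
Each panel gives one gene's CPM over all nuclei of each library, with the digit marking the replicate number, QCM in blue and SCM in red; black bars are the mean and SD of 3 libraries. In the Chga and Rab3c panels the red digits lie under all blue ones, and QCM replicate 1 is the lowest digit of the Kcnj3, Slc8a1, Rimbp2 and Sphkap panels.

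The granin difference was also measured without the enteroendocrine-like clusters. In nuclei of the other 13 clusters Chga stood at 19.8, 8.65 and 10.98 CPM in QCM and 2.48, 4.22 and 6.94 in SCM, and Chgb at 115, 57.2 and 91.7 against 12.1, 37.2 and 50.5. The fit on those nuclei, added after the data were seen, gave a log2 of -1.68 for Chga and -1.57 for Chgb, both with an adjusted p of 0.926. For both granins SCM replicate 1 was the lowest library there and QCM replicate 1 the highest. This fit is given only with both of these libraries included. Marker lists of several cell types also had estimates below 0 over all nuclei, while the 6 stem cell markers had a median log2 of 0.13 with 5 of 6 above 0. The 8 enterocyte markers had a median log2 of -1.98 with 7 of 8 lower in SCM, the 6 Paneth markers -1.20 with 5 of 6 lower, the 7 goblet markers -0.80 with 6 of 7 lower, and the 20 enteroendocrine markers -0.81 with 20 of 20 lower. Their part in the granin values was not tested.

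The share of nuclei in cluster 9 was 1.13%, 1.45% and 3.74% in QCM and 0.698%, 1.07% and 1.74% in SCM. The means were 2.11% ± 1.42 and 1.17% ± 0.525 (SD, n = 3; two-sided exact permutation p = 0.4, where the smallest possible is 0.1). Cluster 10 held 1.24% ± 0.685 and 1.12% ± 0.378 (n = 3; exact p = 0.9), and cluster 9 made up 61.9% ± 2.67 and 50.1% ± 14.3 of the pair of clusters (n = 3; exact p = 0.4). None of the 3 comparisons reached the smallest p this design allows. The last difference exceeded the SD of QCM but not that of SCM, which holds the library with 7 nuclei in the pair.

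Within cluster 9, 3 QCM libraries were set against 2 SCM libraries, and 9 of the 10 genes passed the filter on low counts (Trpc7 did not). None passed the adjusted threshold in edgeR, as for the whole table (0%; DESeq2 also called 0, and 164 at an unadjusted p under 0.05), and the fitted log2 was above 0 for 7 and below 0 for 2, with a median of 0.31. Scn3a (log2 0.77, SE 0.30, adjusted p = 0.966) was the only one called at an unadjusted p under 0.05, where 3.01% of genes (309) were. It was not called with DESeq2, without QCM replicate 3 or without SCM replicate 3. The last fit has an SCM arm of 1 library that is assumed to vary like QCM. Without QCM replicate 2, 3 of the 9 genes were called, where 974 of 10143 genes were. Scn3a was also the only one whose SCM libraries (72.3 and 97.8 CPM) both lay above QCM (33.9 to 63.3), as did 10.7% of genes tested. Chga had a log2 of -0.47 (SE 0.45) and Chgb of 0.21 (SE 0.40).

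Within cluster 10 the fitted log2 was below 0 for all 8 genes that passed the filter (Kcnj3 and Sphkap did not), where 51.7% of all genes were. The median was -0.77 against -0.02 over all genes, though Chga and Trpc7 turned to estimates above 0 without SCM replicate 2. None passed the adjusted threshold in edgeR, as for the whole table (0%; DESeq2 also called 0, and 353 at an unadjusted p under 0.05). Slc8a1 (log2 -1.01, SE 0.39), Rimbp2 (-0.75, SE 0.32) and Rab3c (-1.24, SE 0.51) were called at an unadjusted p under 0.05, where 7.33% of genes (462) were, each with an adjusted p of 0.638. The 3 calls came to 1 with DESeq2, with library size alone (459 of 6302 genes) or without QCM replicate 1 (286 of 5995). They came to 4 without QCM replicate 2 (950 of 6133) and stayed at 3 without QCM replicate 3 (338 of 5934). Without SCM replicate 2 or 3 the SCM arm is 1 library assumed to vary like QCM. The median log2 of the 8 was then -0.53 and -1.30. Fewer of the 8 were called without SCM replicate 2 and more without SCM replicate 3. The value of Rab3c rested on QCM replicate 1 and was -0.59 without it. SCM libraries lay under all QCM libraries for Slc8a1, Rimbp2 and Kcnb2, as for 8.16% of genes tested; the Kcnb2 gap was 389.5 against 391 CPM.

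The enteroendocrine markers had estimates below 0 in cluster 10 for 8 of 8 tested, with a median log2 of -0.94, and their sum was 872, 1142 and 1119 CPM in QCM and 535 and 835 in SCM. In cluster 9 the same list split 10 above 0 and 9 below, with a median of 0.08. The enterocyte, Paneth and goblet lists also had medians below 0 in cluster 10, at -1.96 (5 of 6 below 0), -2.53 (3 of 4) and -0.56 (5 of 5). In cluster 9 their medians were -1.03 (5 of 6 below 0), -1.22 (3 of 5) and -0.30 (3 of 5). The stem cell markers went the other way, with medians of 0.16 in cluster 10 (3 of 5 above 0) and 0.19 in cluster 9 (5 of 5). The part of these lists in the values of the members was not tested.

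The SCM effect in cluster 10 was then set against that in cluster 9 in a single fit over both clusters, with the library as a block; this fit was added after the data were seen. The difference was below 0 for 8 of the 10 genes, where 49.9% of all 8912 genes were, and none of the 10 passed the adjusted threshold (0% of all genes did). At an unadjusted p under 0.05, 7 of the 10 were called, where 3.52% of genes (314) were. The 10 include Kcnj3 and Sphkap, which were under the count filter in cluster 10, and Trpc7, which was under it in cluster 9. They entered this fit through the cluster where they are high, so their signs are no measure of an effect in the other, and Sphkap (4 UMIs in cluster 10) is among the 7. The clusters were drawn from the same counts of these genes in all libraries together, and the genes were chosen for their contrast between clusters 9 and 10, so the count is a description. Scn3a differed by -1.59 (SE 0.35, adjusted p = 0.317), Kcnb2 by -1.19 (SE 0.36), Slc8a1 by -1.30 (SE 0.44) and Chgb by -0.94 (SE 0.35). Chga and Trpc7 had differences above 0 (0.18, SE 0.44, and 0.57, SE 0.92). Without QCM replicate 1 both turned, and all 10 differences were below 0, where 48.3% of all genes were. Leaving out QCM replicate 1, 2 or 3 left 6, 7 and 5 of the 10, where 3.78%, 3.68% and 4.96% of all genes were called. None of the 10 passed the adjusted threshold in these fits. Without SCM replicate 2 or 3 the SCM arm is 1 library. The median difference of the 10 was then -0.99 and -1.54, against -1.11 in the main fit. Fewer of the 10 were called than in the main fit, both without SCM replicate 2 and without SCM replicate 3. Of the 15 enteroendocrine markers tested in the same fit, 5 had a difference below 0 at an unadjusted p under 0.05 and 0 above. In the fits within a cluster, 8 of the 20 markers passed the count filter in cluster 10 and 19 in cluster 9. Markers that entered through cluster 9 give no measure of an effect in cluster 10, so the marker count is also a description.

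**Figure D5:**
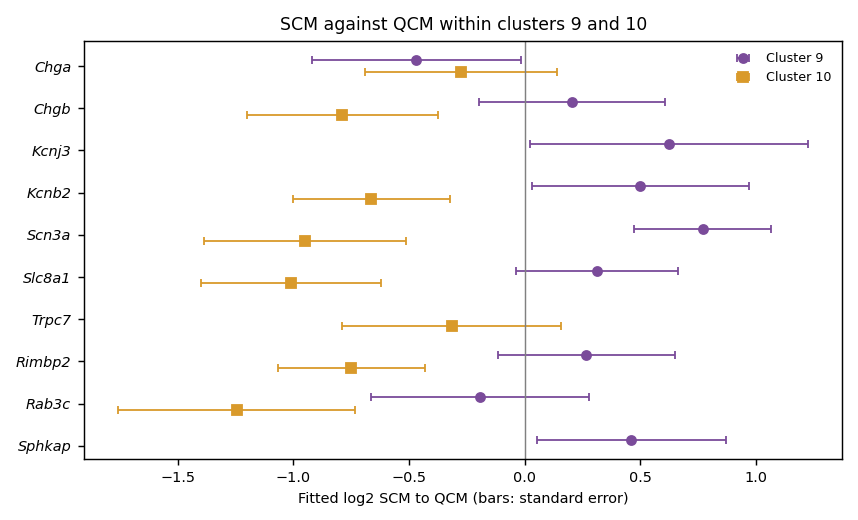
Points give the fitted log2 ratio of SCM to QCM in cluster 9 (purple circles) and cluster 10 (orange squares) with bars of 1 standard error, for genes that passed the filter on low counts. All 8 orange points lie left of 0 (those of Chga and Trpc7 not without SCM replicate 2). Of 9 purple points, 7 lie right of 0, and 5 of the 9 genes kept their sign under all alternatives. No gene passed the adjusted threshold in either cluster.

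The lists of related genes gave no call either. Over all nuclei 0 of 12 granule, 0 of 25 exocytosis and 0 of 23 excitability genes tested passed the adjusted threshold, and the list medians were -0.33, -0.18 and -0.25 against -0.01 for all genes. At an unadjusted p under 0.05, edgeR called the granule genes Scg2 and Pcsk1n with estimates below 0, the exocytosis genes Syt14 and Sytl4 with estimates above 0, and 0 excitability genes, where 4.55% of all genes were called; these names were chosen after their values were seen. In cluster 9 the medians were 0.42, 0.15 and 0.41 over 9, 18 and 13 genes tested, and in cluster 10 they were -0.36, -0.11 and -0.44 over 5, 7 and 6. The calls at an unadjusted p under 0.05 were 0 in cluster 9 and 1 in cluster 10, where Kcnma1 had an estimate above 0 and 7.33% of all genes were called.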

How the data were processed

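Nuclei of frozen organoids were profiled with 10x Genomics 3′ chemistry, and the deposited matrices hold raw UMI counts per gene and nucleus. By the study's methods and the submitters' processing notes, the authors aligned reads to mm10 with Cell Ranger. They removed nuclei that were outliers in depth, features or mitochondrial share, and integrated and clustered the rest. The processing notes name Cell Ranger 2.1.1, while the methods give no version. The deposited metadata give each nucleus its sample and cluster. Gene symbols came from GENCODE M21 by gene ID (31244 of 31319 matched). No nuclei were removed here, doublets included. Total UMIs per library ran from 4071926 to 41035733, which limits the precision of the smallest.

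The 10 genes and all lists were chosen with earlier results of these data known. Counts were summed per library, over all nuclei or within a cluster for libraries with at least 10 nuclei there, and expressed as CPM. SCM was tested against QCM with edgeR 4.0.16 in R 4.3.3 (TMM, filterByExpr, quasi-likelihood test, Benjamini-Hochberg over all genes tested, threshold 0.05). Wilson intervals are at 95%, a count of 0 was given a floor of 3 counts, and shares were also computed with each nucleus thinned to 1000 UMIs, leaving out shallower nuclei. Shares of clusters were compared by exact permutation. Clusters were made from these genes, so clusters were compared without a test. The text names all 10 genes, up to 3 genes of the most similar pattern for each, and the 5 highest genes of each list in each cluster. It also names any list gene that passed the adjusted threshold (none did), and single markers where they stand at 0 or name a cluster. Genes of the 3 lists called at an unadjusted p under 0.05 were named after their values were seen. Alternatives were DESeq2 1.42.0, library size scaling, no count filter, a replicate block, leaving out libraries and a minimum of 5 nuclei. Gene coordinates were taken from GENCODE M21 (GRCm38, the same assembly as mm10).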

Additional observations from a re-analysis of the deposited data

How the results depend on the processing

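None of the 10 genes passed the adjusted threshold under any alternative run, over all nuclei, in cluster 9, in cluster 10 or in the fit of the difference between the clusters. The number of all genes called moved from 0 to 20 with DESeq2 over all nuclei, to 79 in cluster 9 and 118 in cluster 10 without the filter on low counts, and to 1 in cluster 10 with library size alone. Leaving out 1 library gave 0 over all nuclei, 0 in cluster 9 and 0 to 31 in cluster 10, with 31 without QCM replicate 2. The replicate block gave 243 genes in cluster 9 (replicates 2 and 3), none of them among the 10. Deviations of libraries with the same number correlated at 0.364, 0.456 and -0.085 over all nuclei, and those with different numbers at -0.460 to 0.163. These few values do not settle whether the numbers pair the samples. The labels do not tie the replicates to mice, so the main fits took no pairing. The cause of the shifts in the number of genes called was not tested.

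Over all nuclei 7 of the 10 genes kept their sign. With 1 library left out the log2 ran from -0.57 to 0.37 for Kcnj3 and from -0.52 to 0.31 for Sphkap, both highest without QCM replicate 3, and from -0.51 to 0.067 for Kcnb2, highest without SCM replicate 1. In cluster 9, 5 of 9 kept it. The ranges were -1.09 to 0.026 for Chga, -0.44 to 0.64 for Chgb, -0.046 to 0.62 for Rimbp2 and -0.66 to 0.38 for Rab3c. Replicates 2 and 3 alone, which leaves out QCM replicate 1, gave 0.026 for Chga, -0.054 for Chgb, -0.046 for Rimbp2 and 0.38 for Rab3c, and adding the replicate block gave 0.062, -0.12, -0.021 and 0.39. In cluster 10, 6 of 8 kept it, with -1.23 to 0.34 for Chga and -1.40 to 0.31 for Trpc7, both highest without SCM replicate 2.

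With 1 library left out, the difference in share (SCM minus QCM) ran from -1.42 to -0.123 percentage points for cluster 9, from -0.354 to 0.274 for cluster 10 (above 0 without QCM replicate 3 or SCM replicate 3), and from -20.05 to -7.17 for cluster 9 within both. With 3 pairs the replicate block could not reach 0.05 either, so it says nothing about these differences. A minimum of 5 nuclei kept the same libraries. Depth limits Trpc7 and Sphkap most, with 243 and 640 UMIs in all.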
